A study of Mus musculus with 30 samples.

Results

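The genes described here were 10 genes of the trophectoderm, the outer epithelium of the blastocyst: the transcription factors Tead4, Tfap2c, Cdx2, Eomes, Gata2, Gata3, Hand1 and Elf3 and the keratins Krt8 and Krt18. They were chosen as known genes of this lineage, with earlier results of these data known, and taken from the tables by symbol. Each matched 1 Ensembl identifier, so they were 10 of 52630 genes in the table of the time course and 10 of 55487 in that of the passage experiment. All 10 passed the filter on low counts in both tables.

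The cells were E14tg2a, an established line of mouse embryonic stem cells (ESCs). In the time course, cells in Serum/LIF (0 h; fetal serum and the cytokine leukaemia inhibitory factor) were set beside cells moved for 3, 9 or 24 h to Enhanced Metabolic Media (EMM), which is Serum/LIF medium with D-galactose in place of D-glucose and pyruvate. In the passage experiment, cells were kept to passage 10 (P10) or passage 20 (P20) in Serum/LIF, in EMM or in 2i/LIF, where LIF is combined with inhibitors of the kinases GSK3 and MEK. Each of the 4 groups of the time course and each of the 6 groups of the passage experiment held 3 libraries of bulk RNA from this 1 cell line. The labels give the Serum/LIF group of the time course a time of 0 h, whereas the treatment text in the labels speaks of 24 h in Serum/LIF.

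The trophectoderm forms when outer cells of the morula become polar and the inner cells do not. In outer cells the Hippo pathway is inactive, YAP1 and WWTR1 enter the nucleus and TEAD4 with them turns on Cdx2 and Gata3. TFAP2C acts early, partly through genes of polarity, CDX2 and EOMES maintain the lineage and its stem cells, GATA2 and GATA3 act in the trophectoderm and its placental descendants, and HAND1 acts in trophoblast giant cells. KRT8 and KRT18 are the type II and type I keratins that pair into the first intermediate filaments of the embryo, in the trophectoderm. ESCs represent the other lineage, that of the epiblast, and mostly keep this programme low; Eomes and Hand1 are also known from mesoderm, and Tfap2c, Tead4 and Elf3 from ESCs themselves.

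In the first day of EMM both keratins, Tead4, Gata2 and Gata3 rose above Serum/LIF and Cdx2 fell. After 10 and 20 passages in EMM both keratins were far below Serum/LIF, by 16.1-fold (Krt8) and 25.9-fold (Krt18) at P10 and by 7.74-fold and 7.56-fold at P20, and Cdx2 was lower as well. The 2 experiments were counted separately and have no library in common, so the first day and the passages are set side by side with no test between them.

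The total of assigned reads was 24074132 to 35301962 per library in the time course and 6944918 to 27912959 in the passage experiment, so low genes are measured less precisely at P10 and P20. Values below are counts normalized to library size within each experiment (TMM), levels per length are reads per kilobase of exon scaled to library size (RPKM), and differences are log2 fold changes with the standard error (SE) from edgeR's quasi-likelihood fit over all libraries of an experiment. A gene was called where its Benjamini-Hochberg adjusted p over all genes tested (16049 and 16054) was under 0.01. In bulk RNA, fewer cells of a type and less RNA per cell cannot be told apart. All 10 markers of ESCs listed were above 3 counts in every group, though their levels varied between media: Utf1, the lowest, had a mean of 662 normalized counts in 2i/LIF and 3687 in Serum/LIF at P10. Pou5f1 lay between 28298 and 32145 normalized counts in the libraries of the time course and between 15069 and 30907 in those of the passages. Elf5, which marks trophoblast stem cells, had at most 5.79 normalized counts in any library, and Tpbpa, a marker of the spongiotrophoblast, was at 0 in all libraries.

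Krt8 and Krt18 lie beside each other on chromosome 15 (GRCm38, GENCODE M21), Krt8 (ENSMUSG00000049382) at chr15:101996698-102004482 on the minus strand and Krt18 (ENSMUSG00000023043) at chr15:102028180-102032027 on the plus strand, with 23697 bases between them. Their promoters are shown because the keratins had the highest levels of the members in Serum/LIF and the largest differences of EMM from Serum/LIF at P10. The sequences are the parts of the RefSeq promoters (GRCm38.p6) that lie outside both genes' annotated transcripts, 110 bases at chr15:102004483-102004592 for Krt8 and 214 bases at chr15:102027966-102028179 for Krt18, written 5′ to 3′ on the strand of the gene.
Krt8: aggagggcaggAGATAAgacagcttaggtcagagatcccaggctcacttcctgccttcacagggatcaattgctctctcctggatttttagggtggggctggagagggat
Krt18: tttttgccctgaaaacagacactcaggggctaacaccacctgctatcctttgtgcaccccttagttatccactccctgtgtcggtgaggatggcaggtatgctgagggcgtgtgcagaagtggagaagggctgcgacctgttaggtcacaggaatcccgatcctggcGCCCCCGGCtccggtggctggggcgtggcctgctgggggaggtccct
The capitals mark matches to 2 of the 4 motifs searched on both strands in the 250 bases before the RefSeq start sites. In Krt8 it is the motif of GATA factors, AGATAA, and in Krt18 that of AP-2 factors such as TFAP2C, GCCNNNGGC. Counted from the start site, the Krt8 match lies at -239 to -234 and the Krt18 match at -83 to -75. AGATAA occurs in 9.99% and GCCNNNGGC in 13.7% of the 32851 promoters searched; the other motifs were that of TEAD factors, GGAATG (12.6%), and that of AP-1, TGACTCA (4.46%), which had no match in either keratin window. A RefSeq promoter was found for 7 of the 10 members, and among them GCCNNNGGC also occurred in Cdx2, Gata2 and Gata3 and GGAATG in Elf3 and Gata2.

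Per length, the keratins led the list in Serum/LIF at 0 h. Krt18 stood at 47.2 ± 3.24 (SD, n = 3) and Krt8 at 37.8 ± 1.99 RPKM, and the ranges of the 2 genes were the highest of the members. Elf3 (12.8 ± 0.237), Tfap2c (11.8 ± 0.0204) and Tead4 (8.07 ± 0.321) followed, and then came Hand1 (2.05 ± 0.0897), Eomes (1.81 ± 0.118) and Cdx2 (1.06 ± 0.2). Gata2 (0.434 ± 0.0248) and Gata3 (0.237 ± 0.0293) were the lowest. Each gap between neighbours in this order was larger than the SD of either neighbour.

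**Figure D1:**
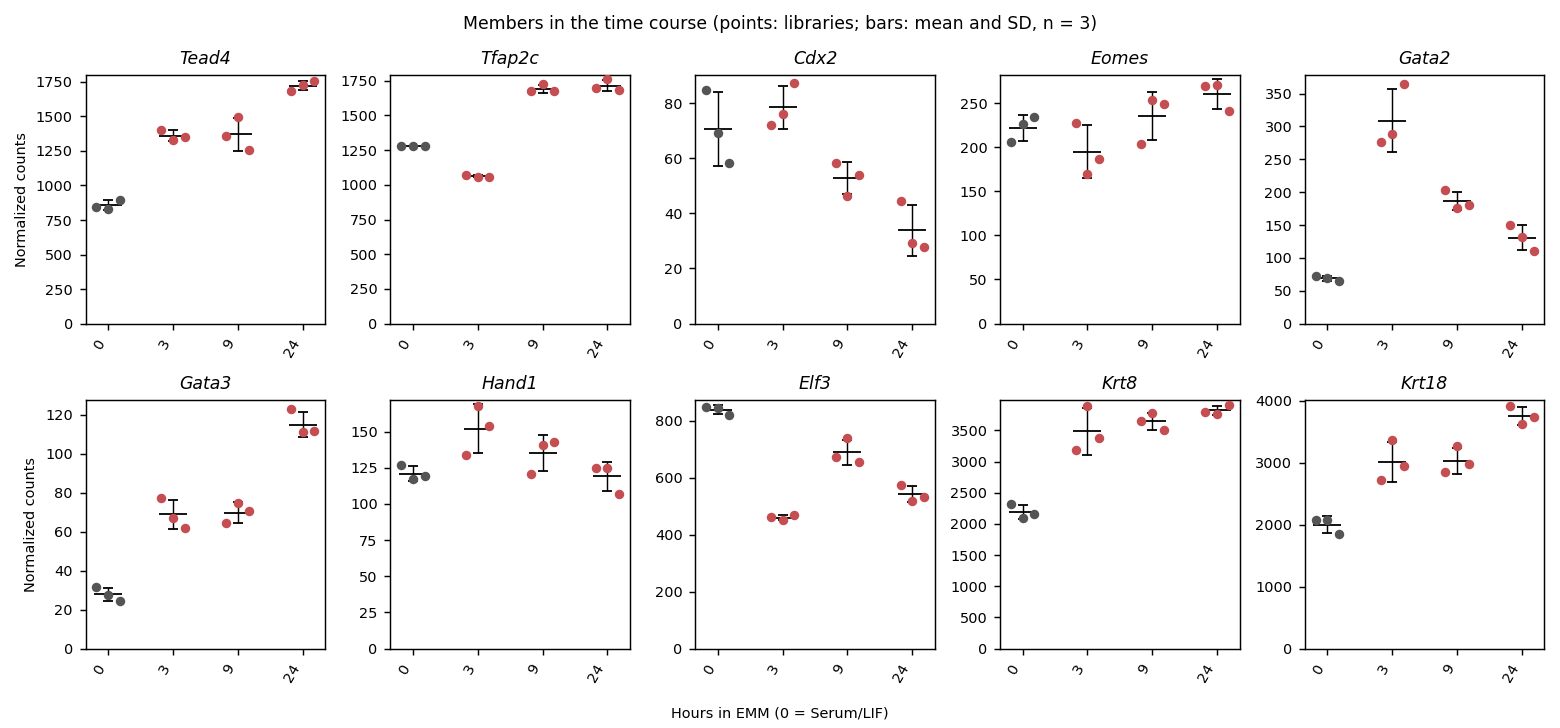
Normalized counts (vertical axis, from 0) of the 10 members against hours in EMM, with 0 h for Serum/LIF; points are libraries, bars the mean and SD (n = 3). Gata2 is highest at 3 h and lower at 9 and 24 h, Gata3 is highest at 24 h, Krt8 is above its 0 h libraries at every later time, and Cdx2 is lowest at 24 h.

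Of the 10 members, 7 were called at 3 h (5 higher, 2 lower), 7 at 9 h (6 higher, 1 lower) and 8 at 24 h (6 higher, 2 lower). The share called among all genes was 34.5% at 3 h, 38.2% at 9 h and 44.0% at 24 h. The median log2 fold change of the members was 0.46, 0.5 and 0.62 at the 3 times, beside -0.01, 0 and 0 over all genes tested. With a log2 fold change above 1 in either direction required as well, 2 members were called at 3 h, 2 at 9 h and 3 at 24 h, beside 4.22%, 5.55% and 8.18% of all genes. All 3 comparisons use the same Serum/LIF libraries, so their values are not independent of each other.

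Tead4 (ENSMUSG00000030353, chr6:128224288-128300823, minus strand), the TEAD factor that acts with YAP1 at the start of the lineage, had 844, 832 and 896 normalized counts in the Serum/LIF libraries and 1405, 1329 and 1348 after 3 h in EMM. At 24 h the values were 1686, 1725 and 1754. Each EMM library was above all Serum/LIF libraries. Tead4 rose by a log2 fold change of 0.67 ± 0.06 (SE) at 3 h and 1.01 ± 0.06 at 24 h (adjusted p = 2.49e-09, edgeR).

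Tfap2c (ENSMUSG00000028640, chr2:172549593-172558622, plus strand), an AP-2 factor, was lower at 3 h and higher later. It had 1281, 1278 and 1277 normalized counts at 0 h, 1071, 1057 and 1058 at 3 h, and 1674, 1724 and 1673 at 9 h. The groups did not overlap in either comparison. Its log2 fold change was -0.27 ± 0.04 at 3 h (adjusted p = 4.46e-05, edgeR), 0.40 ± 0.04 at 9 h and 0.42 ± 0.04 at 24 h, where the libraries held 1700, 1759 and 1686.

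Gata2 (ENSMUSG00000015053, chr6:88193891-88207032, plus strand), a zinc-finger factor of the trophectoderm and of blood, moved most of the members at 3 h. It went from 72.7, 70.1 and 64.9 normalized counts at 0 h to 276, 288 and 364 at 3 h, then 203, 176 and 181 at 9 h and 150, 132 and 111 at 24 h. All EMM libraries were above all Serum/LIF libraries, and the 24 h libraries were below all those of 3 h. Against Serum/LIF the log2 fold change was 2.16 ± 0.14 at 3 h (adjusted p = 1.13e-08) and 0.92 ± 0.15 at 24 h (adjusted p = 0.000108, edgeR). Tested directly, 24 h was below 3 h by -1.24 ± 0.12 (adjusted p = 9.15e-07).

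Gata3 (ENSMUSG00000015619, chr2:9857078-9890034, minus strand), the GATA factor that acts beside Cdx2, rose at all times and most at 24 h. Its libraries had 31.5, 27.6 and 24.6 normalized counts at 0 h, 77.2, 67.3 and 62.2 at 3 h, and 123, 111 and 112 at 24 h. The 3 groups did not overlap. Gata3 rose by 1.30 ± 0.15 (log2) at 3 h, 1.32 ± 0.15 at 9 h and 2.05 ± 0.14 at 24 h (adjusted p = 1.42e-08, edgeR), and 24 h was above 3 h by 0.75 ± 0.12 (adjusted p = 7.41e-05). Gata3 shares exonic bases with the antisense gene Gm13256 and with 9230102O04Rik on its own strand, whose reads stranded counting would not separate, and the strand setting of the time-course libraries is not given in the sources used here.

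Cdx2 (ENSMUSG00000029646, chr5:147300805-147307270, minus strand), the caudal-type homeobox factor of the lineage, fell over the day. It had 84.8, 69.1 and 58.2 normalized counts at 0 h, 72, 75.9 and 87.2 at 3 h, 58.1, 46.4 and 53.9 at 9 h and 44.5, 29.3 and 27.8 at 24 h. The 3 h libraries overlapped those of Serum/LIF, and the 24 h libraries were all lower. For Cdx2 the log2 fold change was 0.16 ± 0.17 at 3 h (adjusted p = 0.468), -0.41 ± 0.18 at 9 h (adjusted p = 0.0689) and -1.05 ± 0.20 at 24 h (adjusted p = 0.000337, edgeR). The 24 h value was below that of 3 h by -1.20 ± 0.19 (adjusted p = 8.27e-05).

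Eomes (ENSMUSG00000032446, chr9:118478212-118486132, plus strand), a T-box factor, was not called against Serum/LIF at any time of the first day. It had 206, 226 and 234 normalized counts at 0 h and 269, 270 and 241 at 24 h, a log2 fold change of 0.23 ± 0.11 (adjusted p = 0.1, edgeR), and it shares exonic bases with the antisense gene Gm33460. Hand1 (ENSMUSG00000037335, chr11:57828705-57832818, minus strand), a basic helix-loop-helix factor, had 127, 117 and 119 normalized counts at 0 h and 125, 125 and 107 at 24 h. Its log2 fold change was 0.33 ± 0.11 at 3 h (adjusted p = 0.0224) and -0.03 ± 0.11 at 24 h (adjusted p = 0.87).

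Elf3 (ENSMUSG00000003051, chr1:135253575-135258568, minus strand), an epithelial factor of the ETS family, fell at all 3 times. It had 850, 846 and 821 normalized counts at 0 h, 462, 451 and 468 at 3 h, 673, 740 and 657 at 9 h and 574, 519 and 532 at 24 h. The lowest libraries were those of 3 h, and no EMM library reached the Serum/LIF range. The fitted difference for Elf3 was -0.87 ± 0.06 at 3 h (adjusted p = 2.25e-08), -0.28 ± 0.06 at 9 h and -0.63 ± 0.06 at 24 h (edgeR). Elf3 shares exonic bases with the antisense gene Gm26642.

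The keratins rose within 3 h. Krt8 had 2315, 2094 and 2152 normalized counts at 0 h, 3179, 3893 and 3373 at 3 h and 3799, 3761 and 3903 at 24 h. Krt18 had 2082, 2083 and 1844 at 0 h, 2726, 3368 and 2957 at 3 h and 3919, 3625 and 3739 at 24 h. For both genes every EMM library was above every Serum/LIF library. Krt8 rose by 0.67 ± 0.06 at 3 h, 0.74 ± 0.06 at 9 h and 0.81 ± 0.06 at 24 h (adjusted p = 5.32e-08, edgeR), and Krt18 by 0.59 ± 0.07, 0.60 ± 0.07 and 0.91 ± 0.07 on the log2 scale (adjusted p = 7.44e-08). From 3 to 24 h Krt18 rose by a further 0.32 ± 0.07 (adjusted p = 0.00165), a call that was lost without replicate 1 of the 3 h group (0.25, adjusted p = 0.0121), and Krt8 differed by 0.13 ± 0.06 (adjusted p = 0.0795). Over all members 8 were called between 24 h and 3 h (6 higher, 2 lower), beside 40.1% of all genes, and 2 with a log2 fold change above 1 as well, beside 4.44%; that comparison was added after the data had been seen. The calls of Eomes (0.42) and Elf3 (0.24) in it were each lost when any of 4 single libraries was left out, and 6 to 8 members were called without 1 library.

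**Figure D2:**
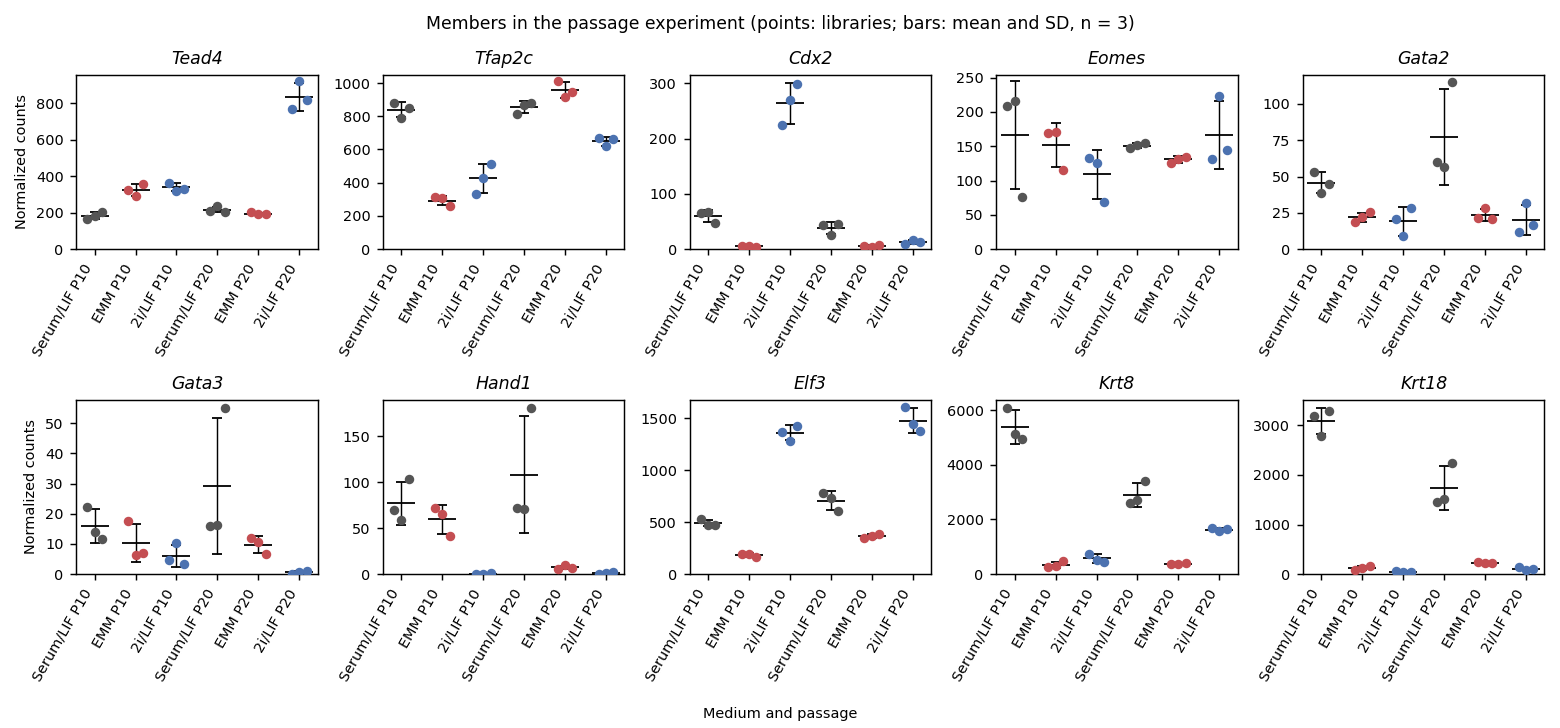
Normalized counts (vertical axis, from 0) of the 10 members in Serum/LIF (grey), EMM (red) and 2i/LIF (blue) at P10 and P20; points are libraries, bars the mean and SD (n = 3). Both keratins are high in Serum/LIF and low in EMM. In 2i/LIF, Krt18 is low at both passages, and Krt8 at P20 lies between EMM and Serum/LIF. Cdx2 reaches 298 in 2i/LIF at P10, and 1 Serum/LIF library at P20 stands above the other 2 for Gata2, Gata3 and Hand1.

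In long culture, 6 of the 10 members were called between EMM and Serum/LIF at P10 (1 higher, 5 lower) and 6 at P20, all lower. With at least 10 counts required in every library, 3 were left at P20. That rule removed Cdx2, Gata2, Gata3 and Hand1 before testing. Among all genes 37.4% were called at P10 and 26.0% at P20. The median log2 fold change of the members was -1.25 at P10 and -1.61 at P20, beside 0.01 and 0 over all genes.

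The keratins had the largest differences between EMM and Serum/LIF at P10. Krt8 had 6091, 5134 and 4942 normalized counts in Serum/LIF and 273, 295 and 470 in EMM, and Krt18 had 3200, 2788 and 3285 in Serum/LIF and 86.8, 122 and 172 in EMM. The lowest Serum/LIF library was over all EMM libraries for each gene, with no overlap. In log2 terms the difference was -4.01 ± 0.19 for Krt8 (adjusted p = 1.47e-11, edgeR) and -4.70 ± 0.21 for Krt18 (adjusted p = 8.16e-12).

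At P20 the keratins were lower in EMM again. Krt8 had 2592, 2698 and 3386 normalized counts in Serum/LIF and 354, 375 and 390 in EMM, and Krt18 had 1463, 1514 and 2251 in Serum/LIF and 238, 223 and 230 in EMM. The highest Serum/LIF value of each gene was that of replicate 3. These values gave a log2 fold change of -2.95 ± 0.18 for Krt8 (adjusted p = 1.44e-09) and -2.92 ± 0.19 for Krt18 (adjusted p = 2.52e-09, edgeR), and without that library it was -2.82 and -2.69. The difference was smaller at P20 than at P10, by 1.05 ± 0.25 for Krt8 (interaction term, adjusted p = 0.00418, edgeR) and 1.78 ± 0.27 for Krt18 (adjusted p = 0.000103). The Krt8 interaction was not called when any of 7 single libraries was left out (log2 differences 0.89 to 1.05). The processed pseudogene Krt8-ps, which could take reads of Krt8, had at most 15.4 normalized counts in any library.

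Cdx2 had few counts in EMM at both passages. It had 65.6, 67.5 and 46.3 normalized counts in Serum/LIF and 4.82, 4.68 and 4.58 in EMM at P10, and 43.1, 25.7 and 45.0 against 4.65, 3.36 and 6.53 at P20. No EMM library overlapped Serum/LIF. Before normalization the EMM libraries held 6, 3 and 2 counts at P10 and 5, 6 and 9 at P20. At P10 the EMM mean was 4.69, beside 4.65 for 3 counts in each library. The log2 fold change was -3.63 ± 0.34 at P10 (adjusted p = 8.61e-08) and -2.94 ± 0.31 at P20 (adjusted p = 9.54e-07, edgeR), and the interaction of 0.69 ± 0.52 was not called (adjusted p = 0.361).

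Elf3 was lower in EMM as well, by -1.40 ± 0.11 at P10 (adjusted p = 6.54e-09) and -0.95 ± 0.10 at P20 (adjusted p = 6.03e-07, edgeR). Its libraries had 529, 473 and 477 normalized counts in Serum/LIF and 196, 190 and 167 in EMM at P10, and 783, 735 and 607 against 348, 368 and 383 at P20. The groups did not overlap at either passage.

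Tead4 and Tfap2c differed between EMM and Serum/LIF at P10 and were not called at P20. Tead4 had 167, 181 and 204 normalized counts in Serum/LIF and 326, 291 and 357 in EMM at P10, and 208, 234 and 206 against 201, 195 and 190 at P20. Tfap2c had 878, 788 and 851 in Serum/LIF and 311, 305 and 259 in EMM at P10, and 813, 869 and 880 against 1014, 918 and 948 at P20. At P10 the EMM libraries were all above Serum/LIF for Tead4 and all below it for Tfap2c.

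The log2 fold change of Tead4 was 0.82 ± 0.11 at P10 (adjusted p = 5.43e-06) and -0.15 ± 0.11 at P20 (adjusted p = 0.276, edgeR), and that of Tfap2c was -1.51 ± 0.12 (adjusted p = 9.15e-09) and 0.17 ± 0.11 (adjusted p = 0.239). The interaction was called for both, at -0.97 ± 0.15 for Tead4 (adjusted p = 0.000121) and 1.68 ± 0.16 for Tfap2c (adjusted p = 6.46e-07). It was called for 5 members in all (3 higher and 2 lower at P20 than at P10), beside 14.7% of all genes.

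Hand1 was the other member with an interaction. It had 69.4, 58.5 and 103 normalized counts in Serum/LIF and 71.5, 65.5 and 41.2 in EMM at P10, where the groups overlapped, and 71.4, 70.7 and 181 in Serum/LIF and 5.58, 9.51 and 6.53 in EMM at P20, where they did not. The log2 fold change was -0.33 ± 0.36 at P10 (adjusted p = 0.465) and -3.82 ± 0.42 at P20 (adjusted p = 1.58e-06, edgeR), with an interaction of -3.49 ± 0.55 (adjusted p = 0.000149). The value of 181 belonged to replicate 3 of Serum/LIF at P20, and without it the P20 difference was -3.24 and the interaction -2.90.

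Gata2 and Gata3 were low in the passage experiment. Gata2 had 53.0, 38.7 and 45.1 normalized counts in Serum/LIF and 18.5, 21.8 and 25.2 in EMM at P10, and 59.9, 56.4 and 115 against 21.4, 28 and 21 at P20. Its log2 fold change was -1.10 ± 0.40 at P10 (adjusted p = 0.029) and -1.69 ± 0.36 at P20 (adjusted p = 0.00116, edgeR). Without replicate 3 of Serum/LIF at P20, the library with 115, the P20 value was -1.29 and no longer called (adjusted p = 0.0121). At P10 Gata2 was called lower with no filter on low counts (-1.17, adjusted p = 0.00605) and with only the compared groups fitted (-1.12, adjusted p = 0.00545, edgeR).

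Gata3 had 22.2, 13.9 and 11.6 normalized counts in Serum/LIF and 17.7, 6.23 and 6.87 in EMM at P10, and 15.8, 16.4 and 55.1 against 12.1, 10.6 and 6.53 at P20. It was called at neither passage, with log2 fold changes of -0.49 ± 0.57 (adjusted p = 0.497) and -1.53 ± 0.52 (adjusted p = 0.0255, edgeR). Without the library with 55.1, again replicate 3 of Serum/LIF, the P20 value was -0.72 (adjusted p = 0.297). The P10 value was -1.28 without replicate 1 of EMM, the library with 17.7, and -0.17 without replicate 1 of Serum/LIF. The interaction was called for neither Gata2 (-0.59 ± 0.54) nor Gata3 (-1.04 ± 0.77), and without replicate 3 of Serum/LIF at P20 it was -0.20 and -0.23.

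That Serum/LIF library was also the highest of its group for 2 of the lists of other cell types and the lowest for mesoderm. The summed normalized counts of the 12 primitive endoderm markers were 6876 in it beside 4892 and 5383 in the other Serum/LIF libraries at P20, and those of the 18 markers of differentiated trophoblast were 19833 beside 13338 and 15281, with 8 of these 18, Tpbpa among them, at or under 3 counts in every library of the group and Peg10 making up most of the sum. The sum of the 12 mesoderm markers was 506 beside 542 and 525, and that of the 16 other factors of the trophectoderm and its stem cells 7325 beside 8197 and 7777. The part of these cells in the values of Gata2, Gata3, Hand1 and Krt18 was not tested.

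Eomes was not called between EMM and Serum/LIF at either passage. It had 209, 216 and 76.4 normalized counts in Serum/LIF and 170, 171 and 115 in EMM at P10 (log2 fold change -0.12 ± 0.31, adjusted p = 0.766, edgeR), and 147, 152 and 155 against 126, 132 and 135 at P20 (-0.21 ± 0.30, adjusted p = 0.616). The low Serum/LIF library at P10, replicate 3, also had the lowest sum of the mesoderm markers, 394 beside 981 and 877 in the others. The marker T (brachyury) made up most of these sums, with 212 beside 698 and 597. Without that library the Eomes value was -0.45 (adjusted p = 0.146, edgeR).

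**Figure D3:**
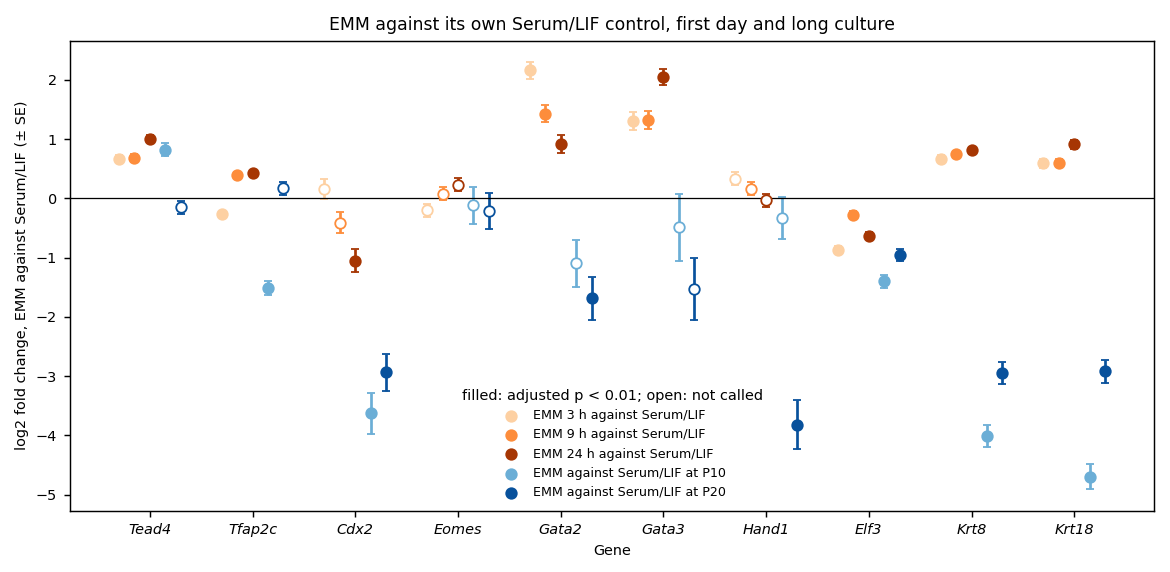
Log2 fold change with SE (vertical axis) of EMM against the Serum/LIF libraries of the same experiment for each member, at 3, 9 and 24 h (orange shades) and at P10 and P20 (blue shades); filled points are called at an adjusted p under 0.01. Krt8 and Krt18 lie above 0 in the first day and below -2.9 at both passages, and Cdx2 and Elf3 lie below 0 at 24 h, P10 and P20.

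Set side by side, 2 members, Krt8 and Krt18, were called higher at 24 h and lower at both P10 and P20. Tfap2c was higher at 24 h and lower at P10, and Gata2 higher at 24 h and lower at P20, with the limits given above for its calls at both passages. Cdx2 and Elf3 were called lower at 24 h, P10 and P20, and no member was called higher at all 3. Tead4 was higher at 24 h and P10 and not called at P20, and Gata3 was higher at 24 h and not called at the passages. The single comparisons called 44.0%, 37.4% and 26.0% of all genes at 24 h, P10 and P20. The share of all genes with each joint pattern was not counted, so these counts describe the members only.

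The comparison with 2i/LIF sets EMM beside the medium that blocks MEK and GSK3. Between EMM and 2i/LIF, 6 members passed the threshold at P10, with EMM above 2i/LIF for 2 and below it for 4, and 8 passed at P20, 4 in each direction, beside 45.1% and 48.6% of all genes. The count of 8 was 5 without replicate 2 of 2i/LIF, with only the compared groups fitted or with at least 10 counts required in every library. The last rule removed Cdx2, Gata2, Gata3 and Hand1 before testing. Between 2i/LIF and Serum/LIF 7 were called at P10 (3 higher in 2i/LIF, 4 lower) and 9 at P20 (2 higher, 7 lower), beside 52.0% and 44.2%, and 5 at P20 with at least 10 counts required in every library. The comparisons of 1 passage share their libraries. Scaling by library totals alone moved the median of all genes between 2i/LIF and Serum/LIF at P20 to -0.12, from -0.01 with TMM.

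Cdx2 was highest in 2i/LIF at P10. Its libraries there had 224, 269 and 298 normalized counts, and those of 2i/LIF at P20 had 9.40, 15.5 and 13.4. At P10 all 2i/LIF libraries were above all Serum/LIF libraries, and at P20 all were below. The log2 fold change of 2i/LIF against Serum/LIF was 2.14 ± 0.22 at P10 (adjusted p = 1.53e-07) and -1.45 ± 0.28 at P20 (adjusted p = 0.000271, edgeR). EMM was below 2i/LIF by -5.77 ± 0.32 at P10 and -1.48 ± 0.36 at P20 (adjusted p = 0.00148), and the latter call was lost without replicate 2 of 2i/LIF (-1.32, adjusted p = 0.0153) or of EMM (-1.23, adjusted p = 0.013), and with only the compared groups fitted (-1.47, adjusted p = 0.0126).

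Elf3 was also high in 2i/LIF, with 1372, 1285 and 1426 normalized counts at P10 and 1609, 1445 and 1379 at P20. It was above Serum/LIF by 1.47 ± 0.10 and 1.06 ± 0.09, and EMM was below 2i/LIF by -2.87 ± 0.11 and -2.01 ± 0.10. The order 2i/LIF, Serum/LIF, EMM held at both passages with no overlap between neighbouring groups.

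Hand1 was at or under 3 counts in all 6 libraries of 2i/LIF, with normalized counts of 0, 0 and 0.815 at P10 and 0, 0.739 and 1.92 at P20. Against a floor of 3 counts in each library, its mean was at least 20.1-fold lower in 2i/LIF than in Serum/LIF at P10 and at least 26.7-fold lower at P20, or at least 17.5-fold at P20 without replicate 3 of Serum/LIF. EMM exceeded 2i/LIF at least 15.5-fold at P10 and at least 1.78-fold at P20. Gata3 was at this floor in 2i/LIF at P20 only, with 0, 0.739 and 0.958, at least 7.19-fold below Serum/LIF (at least 3.97-fold without replicate 3 of Serum/LIF) and at least 2.41-fold below EMM. In EMM against 2i/LIF at P20 the call of Hand1 (adjusted p = 0.00766, edgeR) was lost when any of 5 single libraries was left out, and that of Gata3 (adjusted p = 0.00205) without replicate 2 of 2i/LIF (adjusted p = 0.014).

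Tead4 was high in 2i/LIF at P20, with 768, 921 and 817 normalized counts, all above the 208, 234 and 206 of Serum/LIF. Its log2 fold change against Serum/LIF was 0.89 ± 0.11 at P10 and 1.95 ± 0.10 at P20 (adjusted p = 3.01e-11, edgeR), and EMM was below 2i/LIF by -2.10 ± 0.10 at P20 and by -0.06 ± 0.11 at P10 (adjusted p = 0.623). Over the 746 tested genes of chromosome 6, where Tead4 and Gata2 lie, the median log2 fold change of 2i/LIF against Serum/LIF was 0.33 at P20 and 0.11 at P10, and its part in the Tead4 value was not tested. Gata2 in 2i/LIF had 11.7, 31.8 and 16.3 normalized counts at P20 and was below Serum/LIF (-1.82 ± 0.38, adjusted p = 0.000473). At P10 it had 20.4, 8.71 and 28.5 and was not called (-1.18, adjusted p = 0.0134, edgeR), but it was called with no filter on low counts (-1.25, adjusted p = 0.00167), by DESeq2 (-1.23, adjusted p = 0.0062) and without replicate 3 of 2i/LIF (-1.65, adjusted p = 0.00566).

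Tfap2c in 2i/LIF had 334, 430 and 512 normalized counts at P10 and 667, 618 and 666 at P20. EMM was below 2i/LIF at P10 (-0.54 ± 0.12, adjusted p = 0.000888) and above it at P20 (0.56 ± 0.11, adjusted p = 0.000256, edgeR). The P10 call was lost without replicate 3 of 2i/LIF (-0.38, adjusted p = 0.0106) and with only the compared groups fitted (-0.54, adjusted p = 0.0196). Against Serum/LIF, 2i/LIF was lower by -0.97 ± 0.11 at P10 and -0.39 ± 0.11 at P20 (adjusted p = 0.00575), and the P20 call was lost when any of 4 single libraries was left out (-0.41 to -0.36). Eomes, with 132, 223 and 144 in 2i/LIF at P20, was called in no comparison with 2i/LIF, but without replicate 3 of Serum/LIF at P10 it was lower in 2i/LIF than in Serum/LIF (-0.99, adjusted p = 0.00258), as it was with all libraries and no filter on low counts (-0.73, adjusted p = 0.000593).

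The keratins parted in 2i/LIF. Krt8 had 749, 514 and 453 normalized counts there at P10 and 1666, 1566 and 1631 at P20, and Krt18 had 51.8, 50.8 and 35 at P10 and 134, 90.9 and 92.9 at P20. Against Serum/LIF the log2 fold change of Krt8 was -3.25 ± 0.18 and -0.84 ± 0.17 and that of Krt18 was -6.12 ± 0.24 and -4.10 ± 0.21 (edgeR, all called). In EMM, Krt18 was above 2i/LIF by 1.43 ± 0.27 at P10 and 1.19 ± 0.21 at P20, whereas Krt8 was below it by -0.76 ± 0.19 and -2.12 ± 0.18. The Krt8 call at P10 was lost without replicate 1 of 2i/LIF (-0.53, adjusted p = 0.0155) or without replicate 1 or 2 of EMM (-0.59 and -0.67), and with only the compared groups fitted (-0.74, adjusted p = 0.0288).

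**Figure D4:**
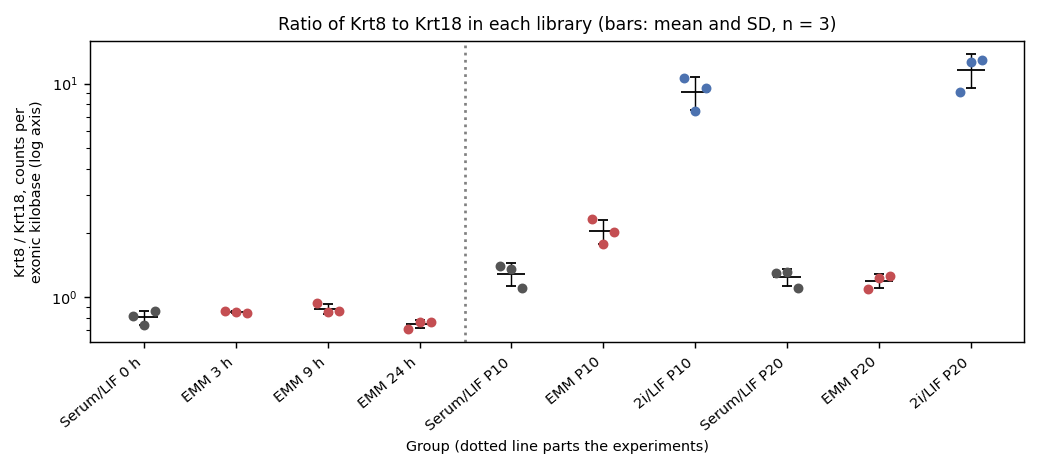
Ratio of Krt8 to Krt18 per exonic kilobase (vertical log axis) in each library of the 10 groups, with the mean and SD (n = 3) as bars and a dotted line between the experiments. The ratio lies near 1 in Serum/LIF and in EMM of the first day, at 2.03 in EMM at P10 and above 7 in every 2i/LIF library.

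Per exonic kilobase, the ratio of Krt8 to Krt18 was 0.803 ± 0.0604 (SD, n = 3) in Serum/LIF at 0 h, 0.847 ± 0.00936 at 3 h, 0.883 ± 0.049 at 9 h and 0.746 ± 0.0303 at 24 h of EMM. It was 1.28 ± 0.158 in Serum/LIF, 2.03 ± 0.267 in EMM and 9.17 ± 1.62 in 2i/LIF at P10. At P20 it was 1.24 ± 0.116, 1.19 ± 0.085 and 11.6 ± 2.1. The 2i/LIF libraries, at 7.42 to 12.9, were thus above all the others, and the EMM libraries at P10 above all of Serum/LIF. With 3 libraries a group, an exact two-sided permutation test cannot go below p = 0.1, and the ratio is given as a description. Krt8 shares exonic bases with the antisense gene Gm36026; the kit of the passage libraries marks strand.

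By the pattern over libraries, the genes most like Krt8 were Dsp (desmoplakin, of desmosomes), Cald1 (caldesmon) and Hsd17b7, with Pearson's r of log2 normalized counts (CPM) of 0.92, 0.85 and 0.83 over the 12 libraries of the time course and 0.92, 0.9 and 0.82 over the 18 of the passages, among 14652 genes compared. Those most like Cdx2 were Slc19a2, Jam3 and Prps2 (0.88, 0.82 and 0.82, then 0.88, 0.83 and 0.86). Those most like Gata3 were Cdh2, Parva and Wnt9a (0.91, 0.92 and 0.92, then 0.93, 0.89 and 0.86). These values describe libraries that share media and times, and no test was made.

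**Figure D5:**
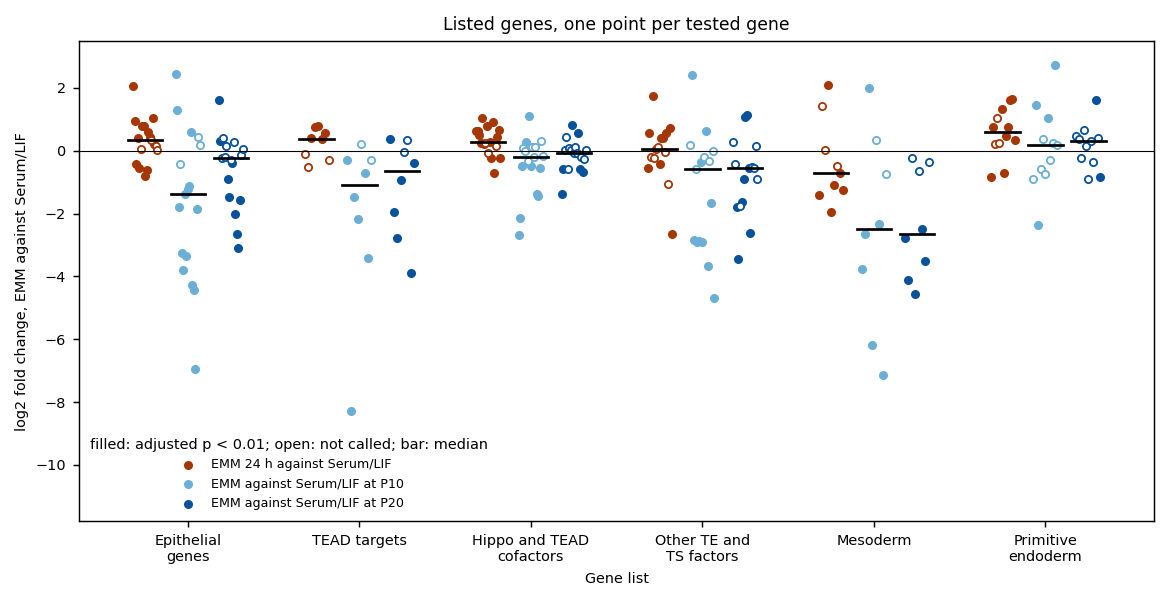
Log2 fold change of EMM against Serum/LIF (vertical axis) for each tested gene of 6 lists at 24 h, P10 and P20; filled points are called at an adjusted p under 0.01 and bars are medians. The medians of the epithelial genes and of the TEAD targets are above 0 at 24 h (0.33 and 0.39) and below 0 at P10 (-1.37 and -1.09).

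Lists of related genes, chosen with earlier results of these data known, are described by their counts, to be read beside the 44.0%, 37.4% and 26.0% of all genes called at 24 h, P10 and P20. Of 17 tested genes of simple epithelia, which make keratins, junctions and transporters, 9 were called higher and 4 lower at 24 h in EMM (median log2 fold change 0.33), 3 higher and 11 lower at P10 (-1.37), against 2 higher and 7 lower at P20 (-0.22). Krt7, a keratin of trophoblast and other simple epithelia, had 90.8, 75.0 and 96.2 normalized counts at 0 h and 171, 168 and 198 at 24 h, a log2 fold change of 1.04. At P10 it had 228, 224 and 251 in Serum/LIF and 0, 6.23 and 0 in EMM, and at P20 116, 124 and 233 against 18.6, 21.8 and 13.8 (-3.09). Its groups did not overlap at any of these points.

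Krt19, another type I keratin, differed by 0.45 at 24 h, -4.27 at P10 and -2.0 at P20, all called. Aqp3, a channel for water and glycerol, went the other way at the passages and was higher at all 3 points (2.05, 2.44 and 1.62). Epcam, an adhesion molecule, was among those that fell at 24 h (-0.80). Atp1b1, a subunit of the sodium pump, rose at P10 (1.28).

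Of 8 TEAD target genes 6 were called higher and 0 lower at 3 h (median 0.60, beside 34.5% of all genes called), 2 higher and 0 lower at 9 h (0.02, beside 38.2%), 5 higher and 0 lower at 24 h (0.39), 0 higher and 6 lower at P10 (-1.09), against 1 higher and 5 lower at P20 (-0.66). Ccn1 (Cyr61) differed by 1.10 at 3 h, 0.77 at 24 h, -2.16 at P10 and -0.93 at P20, and Tgfb2, a ligand of the TGF-β family, by -3.42 at P10 and -3.89 at P20. Ankrd1 rose at 3 h (1.21) and was at 0 counts in EMM at P10, beside a mean of 38.5 in Serum/LIF.

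Of 17 genes of the Hippo pathway and cofactors of TEAD 11 were called higher and 3 lower at 24 h (0.29), 2 higher and 7 lower at P10 (-0.20), against 2 higher and 4 lower at P20 (-0.06). Lats2, a kinase that phosphorylates YAP1, rose by 1.03 at 24 h and Tead1 by 0.92, whereas Tead2 fell by 0.71 on the log2 scale. Yap1 itself differed by -0.22 at 24 h (called), -0.18 at P10 and 0.02 at P20 (not called). Amot, a scaffold that holds YAP1 outside the nucleus, was lower at both passages (-2.67 and -1.37), and Nf2, an activator of the pathway, was higher (1.11 and 0.82).

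Among 15 other factors of the trophectoderm and its stem cells 6 were called higher and 3 lower at 24 h (0.04), 2 higher and 8 lower at P10 (-0.58), against 2 higher and 6 lower at P20 (-0.55). Cdx1, a relative of Cdx2, rose at 24 h from 90.8, 125 and 147 to 421, 416 and 391 normalized counts (1.75) and was lower at P20 (-3.45). Tmem54 was lower at 24 h (-2.65) and P10 (-4.69) and not called at P20 (-0.89). Tfap2a, a relative of Tfap2c, rose at 24 h (0.73) and was not called at P10 (0.00) or P20 (0.16). Bmp4, a signal that acts on trophoblast, rose at P10 (2.42), and Msx2 fell at P10 (-3.66) and P20 (-2.61).

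For markers of other cell types, the counts called are to be read beside the shares of all genes called between EMM and Serum/LIF, 44.0% at 24 h, 37.4% at P10 and 26.0% at P20; those of primitive endoderm at P10 and P20 and of differentiated trophoblast at 24 h were at or below these shares. Of 12 primitive endoderm markers 7 were called higher and 2 lower at 24 h (median 0.60); of 11 tested in the passages 3 were higher and 1 lower at P10 (0.19), against 1 higher and 1 lower at P20 (0.30). The summed normalized counts of that list were 8597 to 9206 in Serum/LIF at 0 h and 11425 to 12720 at 24 h, with 0 of 12 markers at the floor, and Sox7 (1.65) and Sox17 (1.62) rose most. Of 9 mesoderm markers 1 was higher and 5 lower at 24 h (-0.70), and of 8 tested in the passages 1 was higher and 5 lower at P10 (-2.49), against 0 higher and 5 lower at P20 (-2.64). T (brachyury) had 698, 597 and 212 normalized counts in Serum/LIF at P10 (mean 502), beside a mean of 3.65 in EMM. It made up most of the summed mesoderm list in each of these Serum/LIF libraries. The summed mesoderm list was 394 to 981 in Serum/LIF and 133 to 165 in EMM at P10, with 2 and 6 of 12 markers at the floor, and its part in the values of Eomes, Hand1 and Cdx2, which mesoderm also expresses, was not tested.

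Of the 18 markers of differentiated trophoblast, 7 were high enough to be tested. At 24 h 2 of them were called higher and 1 lower (-0.18), at P10 0 higher and 3 lower (-0.30) and at P20 0 higher and 3 lower (-0.84), and 8 to 12 of the 18 were at the floor in every group. Plac8 was lower at both passages (-4.71 and -1.08), and Peg10, an imprinted gene with means of 18563 normalized counts at 0 h and 26110 at 24 h that made up most of the sum of the list, rose at 24 h (0.49). Of 10 pluripotency markers 2 were higher and 3 lower at 24 h (-0.06), 5 higher and 1 lower at P10 (0.49), against 2 higher and 2 lower at P20 (0.03). Of the relatives of the members in the GATA, AP-2, caudal, ETS, HAND and keratin families, 1 of 8 tested was higher and 1 lower at 24 h (-0.14), 2 of 10 higher and 2 lower at P10 (-0.30), against 0 higher and 2 lower at P20 (-0.52).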

How the data were processed

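RNA was measured in 30 libraries of rRNA-depleted RNA (12 in the time course, 18 in the passage experiment). For the time course the authors deposited read counts per gene, whole numbers; for the passages they deposited estimated counts, of which 9.98% were not whole and were rounded here. The submitters' processing notes name STAR with featureCounts and with Salmon and the mouse build mm10, whereas the methods name HTSeq; versions are not given in the sources used here. Symbols and positions came from GENCODE M21, which gave a symbol for 52397 of 52630 and 55141 of 55487 identifiers.

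Counts were fitted with edgeR 4.0.16 in R 4.3.3 (TMM, filterByExpr, quasi-likelihood test, all groups of an experiment in 1 model), with a call at a Benjamini-Hochberg adjusted p under 0.01. Scripts were tested on simulated data. Alternatives were DESeq2 1.42.0, other scaling, filters and thresholds, fits of the compared groups alone, replicate blocks and leaving out each library; the comparison of 24 h with 3 h was added after the data were seen. The members and lists were chosen with earlier results of these data known. All members are named. Of each list, the genes named are at most the 2 largest called rises and the 2 largest falls of a comparison. Also named are Elf5, Tmem54, Tfap2a, Yap1, Krt7, Krt19, Pou5f1 and markers at or near 0. The likeness lists hold the 3 genes with the highest lower r of the 2 experiments. The study's methods call replicates independent experiments. All libraries of a group differed by more than sampling noise, which does not by itself show separate cultures. By chi-square per gene, pairs of the 3 h group had 2.09 to 2.69 and those of Serum/LIF at 0 h 10.1 to 12.3. The floor of 3 counts covers counting error only, and the SE includes the spread between libraries.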

Additional observations from a re-analysis of the deposited data

Results flagged for a closer look

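For 5 of the members the difference between EMM and Serum/LIF itself differed between P20 and P10. The rule was the interaction term of edgeR at an adjusted p under 0.01, by which 14.7% of all genes were called. The P20 difference minus the P10 difference was 1.68 (log2) for Tfap2c, -0.97 for Tead4, -3.49 for Hand1, 1.05 for Krt8 and 1.78 for Krt18. The Krt8 call was lost in several fits that left out a single library, as given above. Tfap2c was lower in EMM at P10 only, Tead4 higher at P10 only, Hand1 lower at P20 only, and the keratins lower at both passages with the larger difference at P10. In Serum/LIF the mean normalized count of Krt8 was 5389 at P10 and 2892 at P20, and in EMM 346 and 373. For Tfap2c the means in Serum/LIF were 839 and 854, and in EMM 292 and 960.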

How the results depend on the processing

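Of the 110 values tested, 77 were called. In the other fits that gave them a value, 66 of these kept their call, 11 lost it in at least 1, and 0 turned sign. A required log2 fold change above 1 ended 31 of the 77 calls and the filter of 10 counts in every library removed 16, so that 29 held under every alternative with both rules included (a count added after the data were seen). With the fold rule, the members called were 2 at 3 h, 2 at 9 h, 3 at 24 h and 2 between 24 h and 3 h. In the passage experiment, the requirement of at least 10 counts in every library removed Cdx2, Gata2, Gata3 and Hand1 before testing. Of the members left, 3 were called for EMM against Serum/LIF at P20. There were 5 for EMM against 2i/LIF and 5 for 2i/LIF against Serum/LIF at P20. The shares of all genes then tested were 30.4%, 50.6% and 43.7%. With only the compared groups fitted, 5 members were called for EMM against 2i/LIF at P20, beside 45.8% of all genes. For that comparison, leaving out 1 library gave 5 to 8 (5 without replicate 2 of 2i/LIF). The cause of the changes in the fits of compared groups was not tested. Values that turned sign were all of uncalled members: Hand1 at 24 h was 0.00 with no filter and 0.01 with a replicate block by the description numbers. Leaving out single libraries gave ranges that crossed 0 for Hand1 at 24 h (-0.05 to 0.05), for EMM against 2i/LIF for Gata2 at P10 (-0.24 to 0.55) and P20 (-0.05 to 0.69) and Tead4 at P10 (-0.12 to 0.01), for Eomes in EMM against Serum/LIF at P10 (-0.45 to 0.10), in 2i/LIF against Serum/LIF at P20 (-0.13 to 0.29) and in the interaction (-0.31 to 0.24).

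The replicate numbers did not pair the libraries of the groups compared: same-numbered libraries correlated in their deviations from the group means by -0.134 to 0.207 in the time course (-0.132 to 0.28 by the numbers of the descriptions) and by -0.212 to 0.299 in the passages, and 5 of 12 and 7 of 18 libraries had their highest mean correlation with their own number (for 4 and 6 the closest single library carried it). The exception was 2i/LIF at P10 with 2i/LIF at P20, where the same-numbered pairs correlated by 0.299, 0.134 and 0.224; no comparison was made between those groups. With the replicate number as a block the members called were 7, 7 and 8 at 3, 9 and 24 h, 6 and 6 for EMM against Serum/LIF at P10 and P20, 6 and 8 for EMM against 2i/LIF, 7 and 9 for 2i/LIF against Serum/LIF and 5 for the interaction, the same counts as without it. Depth limits Cdx2 in EMM and Gata3 and Hand1 in 2i/LIF, which had few counts at P10 and P20.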

Other observations

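Other factors of the trophectoderm and its stem cells differed between EMM and 2i/LIF in both directions. Of 15 tested, 7 were called higher and 5 lower in EMM at P20 (edgeR, adjusted p under 0.01; median log2 fold change 1.58), beside 48.6% of all genes called, and 6 higher and 4 lower at P10 (median 0.56), beside 45.1%. Fgfr2, the receptor for the FGF signal of trophoblast stem cells, had a mean of 9.03 normalized counts in 2i/LIF and 558 in EMM at P20 (5.95) and was not called at P10, with 33.8 and 45.7 (0.41, adjusted p = 0.123). Id2, an inhibitor of helix-loop-helix factors, was higher in EMM at P20 (28.9 and 853, 4.94) and at P10 (32.1 and 500, 3.89). Tfap2a (-4.57 at P20, -3.94 at P10) and Cdx1 (-4.40 and -3.87) were lower in EMM.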
